A study of Homo sapiens with 2 samples.

Results

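The 10 genes described here encode ETS transcription factors outside the ERG subfamily: ETS1, ETS2, ELF1, ELF2, ELF4, ELK3, ELK4, ETV3, ETV6 and GABPA. They were named by family membership, and their sites were taken as every peak of acetylated lysine 27 of histone H3 (H3K27ac) inside the gene record or within 50 kb of it. This gave 42 ERG-library peaks out of 19671, and 17 Vector-library peaks out of 9161. Both libraries came from the human cell line F36P, derived from an erythroid leukaemia, by chromatin immunoprecipitation and sequencing. The ERG library came from cells transduced with MSCV-PIG-AM-ERG, a retroviral plasmid for ERG overexpression (the labels do not spell out AM), and the Vector library from cells transduced with MSCV-PIG alone, labelled WT for genotype. Both cell populations, as the labels describe them, were under puromycin at 1 µg/ml for 4 days. Each group held 1 library, so no difference below has a replicate check and no test between groups was made. Intervals cover counting error only, and coordinates are those of hg38. A site with no peak may still carry acetylation below the caller's threshold.

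ETS factors share a DNA-binding domain that recognises a GGAA core, and ERG, also an ETS factor, can bind many of the same sites. Several of the 10 act in blood cells. ELF1, ELF2 and ELF4 regulate genes of blood lineages, ETV6 is a repressor needed by blood stem cells and is broken in several leukaemias, and GABPA serves widely used promoters in most cell types. H3K27ac marks active promoters and enhancers.

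The erythroid label was checked with 10 marker genes, of which 7 had a peak within 1 kb of a gene end in both libraries, as did 30.2% of the 20037 protein-coding genes. ALAS2 had one in the ERG library alone, as did 15.6% of coding genes. HBA1 and SLC4A1 had no such peak in either library. Of 10 genes of other tissues, 0 had one in both libraries and APOA1 had one in the ERG library alone. The lists give no read totals, and depth was read from the fragments instead. The number of fragments at each summit and its local background were recovered from the peak caller's values. The lowest local background among the peaks of a list was taken as its genome-wide background, which was not measured directly. It was 2.31 fragments in the ERG library, against 1.60 in the Vector library, a ratio of 1.44. At the 1089 shared peaks with at least 50 Vector-library fragments the median ratio of summit fragments was larger, 2.04. Many of the differences below change with the ratio used for scaling, though not all, and the closing section gives values under other scalings.

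At the annotated starts most of the 10 genes carried a peak in both libraries, whereas ETV3 and ELK3 did so with ERG only. The bases before the start, from the RefSeq promoter table (GRCh38.p14), lie under the ERG-library peak at ETV3, ELK4 and ETV6, and before the peak at ELK3. They are given 5′ to 3′ on the strand of the gene, with each ETS core, GGAA or its reverse complement TTCC, in capitals. The first pair belongs to the genes whose start-site peak was in the ERG library alone, the second pair to genes with one in both libraries.
ETV3, chr1:157138396-157138645, minus strand: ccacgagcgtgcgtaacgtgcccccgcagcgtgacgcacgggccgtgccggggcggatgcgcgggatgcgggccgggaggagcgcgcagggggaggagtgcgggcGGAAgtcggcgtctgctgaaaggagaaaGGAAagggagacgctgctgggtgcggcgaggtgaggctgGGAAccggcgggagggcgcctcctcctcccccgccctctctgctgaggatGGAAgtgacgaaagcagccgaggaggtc
ELK3, chr12:96194125-96194374, plus strand: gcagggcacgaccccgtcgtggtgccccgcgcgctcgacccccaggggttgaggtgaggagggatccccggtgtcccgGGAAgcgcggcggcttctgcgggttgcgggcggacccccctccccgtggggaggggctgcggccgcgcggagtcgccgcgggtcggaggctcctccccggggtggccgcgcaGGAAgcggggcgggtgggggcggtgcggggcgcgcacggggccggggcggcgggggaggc
ELK4, chr1:205632012-205632261, minus strand: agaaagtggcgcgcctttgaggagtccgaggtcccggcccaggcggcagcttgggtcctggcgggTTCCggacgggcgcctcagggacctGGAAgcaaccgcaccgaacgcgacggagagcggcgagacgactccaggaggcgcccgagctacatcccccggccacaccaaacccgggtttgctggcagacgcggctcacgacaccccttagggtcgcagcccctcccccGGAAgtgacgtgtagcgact
ETV6, chr12:11649424-11649673, plus strand: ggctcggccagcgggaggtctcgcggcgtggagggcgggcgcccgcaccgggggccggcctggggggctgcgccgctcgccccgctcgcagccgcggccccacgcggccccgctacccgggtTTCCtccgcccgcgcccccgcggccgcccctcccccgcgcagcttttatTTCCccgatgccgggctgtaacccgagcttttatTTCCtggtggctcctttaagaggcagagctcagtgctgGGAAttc

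The upstream stretch of ETV3 held 4 ETS cores, that of ELK3 2, that of ELK4 3 and that of ETV6 4. The core is common, since 95.1% of the 22199 start-site windows of coding genes in the table held it on one strand or the other, each window running from 250 bases before a start to 50 after it. Of the 16 windows of the 9 genes with an entry, 14 held it. The fuller site CCGGAAGT, which contains the core, was found on either strand in 5.34% of all windows. Among the windows described here it was found at ELK4, in the last core printed above, and at GABPA. The GABPA site, shown with 30 bases because a neighbouring gene record overlaps the region, reads in the opposite direction. It lies inside the ERG-library peak and between the 2 Vector-library peaks.
GABPA, chr21:25734894-25734923, plus strand: acctccgctctacTTCCggccctggctccg

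Over all coding windows, CCGGAAGT was present in 10.4% of the 6819 windows that had start-site peaks in both libraries. It was present in 9.54% of the 3334 where only ERG gave a peak, and in 1.33% of the 11987 with none. The shorter CCGGAAG, which it contains, was present in 12.8% of windows and again at ELK4 and GABPA among the 16. The GATA-type site AGATAA was present in 7.91% of windows and in 2 of the 16, at the outer start of ETS2 and an inner start of ELF1. The RUNX-type site TGTGGT was present in 11.3% and in 2 of the 16, at the outer start of ETS2 and an inner start of ELF4. Both strands were searched, and a match in a window is a description of letters only.

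Of the 10 genes, 6 had a peak within 1 kb of a gene end in both libraries (ETS2, ELF1, ELF2, ELK4, ETV6 and GABPA), against a background of 30.2% of coding genes. The ERG library alone had one at 3 (ELF4, ELK3 and ETV3), where 15.6% of coding genes did so. ETS1 had none in either library, and no gene had one in the Vector library alone. By annotated start sites, 7 of the 9 genes with an entry had a peak within 1 kb in both libraries, ELF4 being the addition, and 2 in the ERG library alone. Over the 15843 coding genes with an entry these shares were 33.2% and 16.1%.

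Every one of the 10 genes had a longer stretch covered by peaks in the ERG library, as did 73.0% of all coding genes, so the direction is shared with most genes. At ELK4 it turned, to a difference of -309 bp, when the ERG list was cut to its 9161 highest-scoring peaks. It turned likewise when ERG-library summit fragments were divided by the ratio at strong shared peaks. Both settings dropped an ERG-library peak inside the neighbouring gene SLC45A3, 46.9 kb away, and kept its Vector-library counterpart. The ELK4 promoter peak itself stayed wider in the ERG library. The median over the 10 was 3449 bp in the ERG library, against 850 bp in the Vector library, with a median difference of 2599 bp. Over all coding genes the medians were 1376 and 404 bp, and the median difference 801 bp. Many coding genes have no peak at all, so the 6049 with end peaks in both lists are a closer comparison, with medians of 2540 bp in the ERG library, against 1103 bp in the Vector library, and a median difference of 1339 bp. Windows of the 10 genes differ in length, from 117.2 kb at ETV3 to 345.7 kb at ETV6, and a longer window can hold more peaks. With the gene record alone, the median difference was 733.5 bp.

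**Figure D1:**
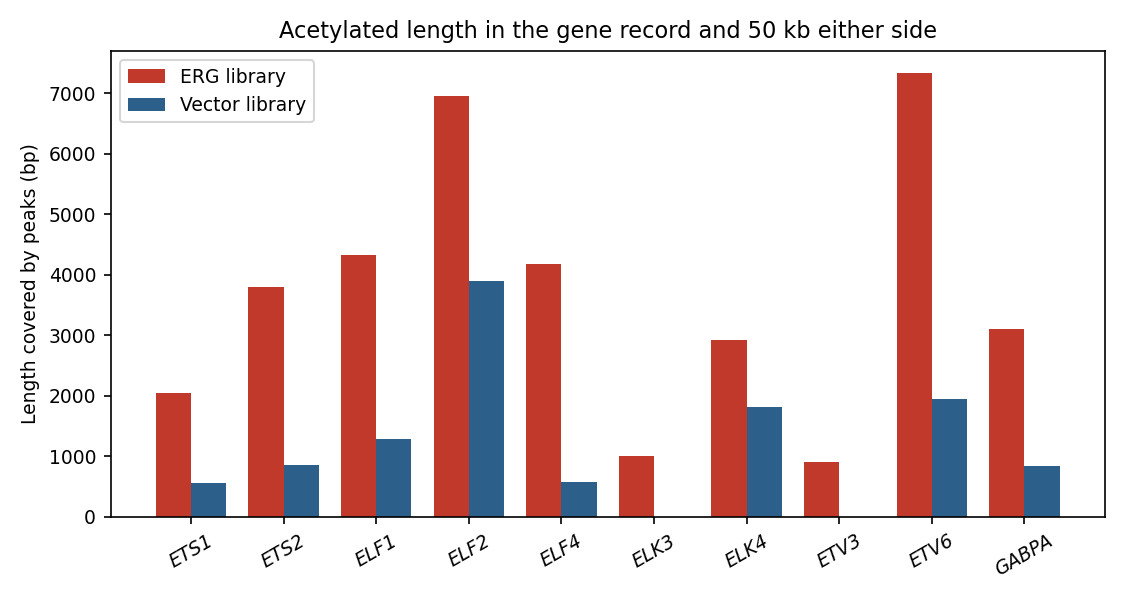
Length in bp covered by H3K27ac peaks in each gene record and 50 kb either side of it, with 1 red bar for the ERG library and 1 blue bar for the Vector library per gene. Every red bar is the taller one, ETV6 having 7334 against 1953 bp, and ELK3 and ETV3 have no blue bar.

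Of the 42 ERG-library peaks near the 10 genes, 29 had no overlapping Vector-library peak, 69.0% (95% exact interval 52.9 to 82.4). At the Vector genome background, with fractional fragments allowed, 28 of these 29 would still have passed the lowest p-value of the Vector list. The 29 were selected for passing in the ERG list, which favours a high count here. The same holds for the fragments needed at single peaks below, and the part of depth in their absence was not tested. With summit fragments divided by 2.04 and the background still by 1.44, 25 ERG-library peaks were left in all, of which 56.0% were unshared. Over all shared pairs the median ratio of local backgrounds was 1.97, so this setting lowers a summit more than its background and removes peaks. In the whole ERG list as deposited the unshared share was 58.9%, inside the interval of 52.9 to 82.4. In the other direction, 2 of 17 Vector-library peaks were unshared, 11.8% (1.46 to 36.4), against 8.97% of the whole Vector list. The share was lower at starts, though the intervals overlap. Of the 14 ERG-library peaks within 1 kb of a start of these genes 6 were unshared, 42.9% (17.7 to 71.1), and of the other 28, 23 were unshared, 82.1% (63.1 to 93.9). The whole list divided likewise, with 37.7% unshared within 1 kb of a coding start and 72.3% elsewhere. Unshared ERG-library peaks near the 10 genes had a median width of 566 bp and 38 summit fragments, and shared ones 1433 bp and 108 fragments.

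**Figure D2:**
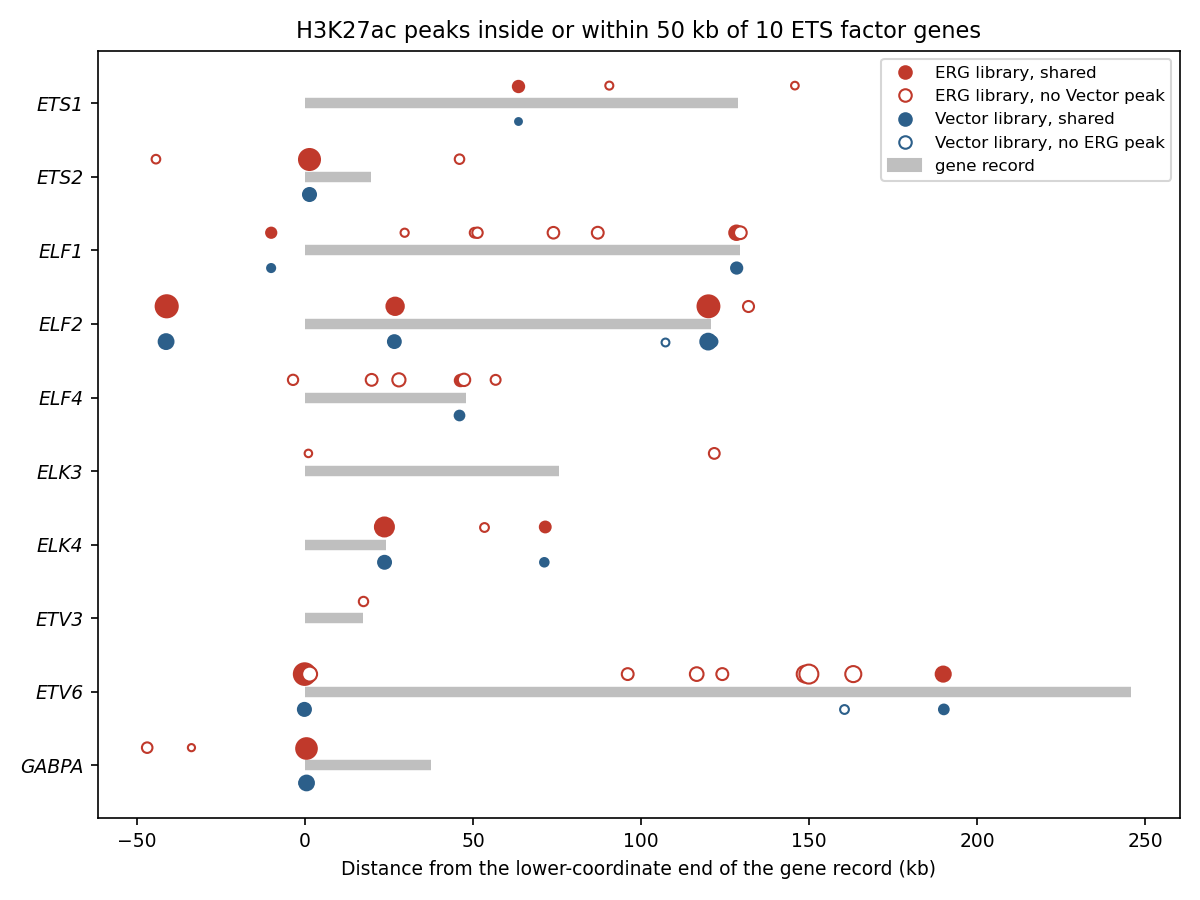
Position in kb of each peak along the 10 genes, with 0 at the low-coordinate edge of each gene record (grey bar), with ERG-library peaks in red above the bar and Vector-library peaks in blue below it. The area of a circle grows with the fragments at the summit, and open circles are peaks with no counterpart in the other library, 29 of them red and 2 blue.

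GABPA, which binds as a complex with GABPB1 or GABPB2 and activates many housekeeping and mitochondrial genes, had the highest-scoring promoter peak of the group. The gene lies on chromosome 21 from 25734972 to 25772460. Its promoter peak, at 25734478 to 25736097 in the ERG library, had 156 fragments and ranked 264 in its list by score. In the Vector library the same site held 2 peaks. The stronger, at 25735164 to 25735681, had 76 fragments and ranked 207 of 9161, and the weaker, at 25734512 to 25734838, had 26. The ERG-library summit lay 474 bp and the stronger Vector-library summit 447 bp past the start. This region is shared with ATP5PF, a subunit gene of the mitochondrial ATP synthase, whose record (25724500 to 25735653) overlaps the start of GABPA, so the peak cannot be assigned to one of the pair. A further 2 ERG-library peaks, with 36 and 13 fragments, lay inside JAM2, 46.6 and 33.5 kb from GABPA.

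Among the ELF subfamily, ELF2, which binds RUNX1 and has activating and repressing isoforms, was acetylated strongly in both libraries at both of its annotated starts. ELF2 lies on chromosome 4 from 139057220 to 139177915 on the minus strand. The outer start carried a peak with 176 fragments in the ERG library (139176048 to 139178527), against 88 in the Vector library (139176545 to 139177867). The inner start carried one with 108 fragments in the ERG library, against 56 in the Vector library. ELF2 was the one gene with more Vector-library than ERG-library peaks, 4 in the ERG library, against 5 in the Vector library. Yet its window, flanks included, was covered over 6956 bp in the ERG library, against 3894 bp in the Vector library. The count came about because a second Vector-library peak beside the outer start (139178158 to 139178533) overlapped the same wide ERG-library peak, and because a 291 bp Vector-library peak inside the gene, with 17 fragments, had no counterpart. The strongest peak in the window, with 180 ERG-library and 77 Vector-library fragments, lay 40.5 kb away at the start of NOCT, a circadian gene, and is not part of ELF2. The covered length above includes this NOCT peak and a 1456 bp peak of the ERG library alone, 10.4 kb outside ELF2. With the gene record alone, the covered-length difference at ELF2 was 770 bp, against 3062 bp with the flanks.

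ELF1, an activator of many blood cell genes, carried ERG-library-only peaks along the gene body, at inner starts and across its outer start. ELF1 lies on chromosome 13 from 40931919 to 41061386 on the minus strand, and had 8 peaks in the ERG library, against 2 in the Vector library. A shared peak beside its outer start, at 41059829 to 41060818 in the ERG library, had 73 fragments there, against 41 in the Vector library. A second one across the start itself, with 55 fragments, was found in the ERG library alone. The neighbouring gene WBP4 begins 123 bp beyond the start of ELF1, so these peaks lie near both. With a gene-end window of 500 bp only the ERG-library peak counted at ELF1.

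Far inside ELF1, a close pair of annotated inner starts had peaks in the ERG library alone. The peak at 40982144 to 40982655, with 30 fragments, had its summit 50 bp past the first of these starts, and the peak at 40983091 to 40983398, with 35 fragments, had its summit at -434 bp from the second. The nearest Vector-library summit lay 60269 bp from the first. Both were weak, at percentiles 6.5 and 22.7 of the ERG list by score. At the ERG-library background divided by 1.44, a Vector-library peak would have needed 21 whole fragments to reach the lowest p-value of its list. The ERG-library numbers divided by 1.44 were 20.8 and 24.2. The first falls short of 21, and it passed only where fractional fragments were allowed. The part of depth in their absence from the Vector list was not tested.

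ELF4, a factor of natural killer cells and blood stem cells, had 6 peaks in the ERG library, against 1 in the Vector library, and the largest covered-length ratio among the 8 genes with a Vector-library peak, 4177 against 569 bp, or 7.34. The gene lies on chromosome X from 130063955 to 130111858 on the minus strand. The shared peak, at 130109503 to 130110722 in the ERG library, sat at a start inside the record, with 43 fragments in the ERG library, against 29 in the Vector library. After division by 1.44 this was a ratio of 1.03 (0.627 to 1.71). The peak nearest the outer start, at 130111060 to 130111491, had 52 fragments and was in the ERG library alone, as were peaks inside the gene with 60 and 47 fragments. With a gene-end window of 2.5 kb, or by start sites, ELF4 had peaks in both. The record of RAB33A (130110623 to 130184870) overlaps this end of ELF4.

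ETS1 and ETS2 are close relatives that respond to RAS and MAP kinase signals, ETS1 being best known from lymphocytes. ETS1 lies on chromosome 11 from 128458765 to 128587558, and its strongest peak lay inside the gene, with 42 fragments in the ERG library (128521606 to 128522792), against 11 in the Vector library (128521762 to 128522319). The ratio, before scaling, of 3.82 (1.93 to 8.22) was at percentile 98.1 of the 8055 shared pairs of the whole lists. The Vector-library count is small, and the peak ranked 8491 of 9161 in its list. A further 2 ERG-library peaks, inside the gene and 16.7 kb outside it, had 18 and 16 fragments. ETS1 has no entry in the promoter table, so no distance of its peaks from a start was measured.

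ETS2, on chromosome 21 from 38805183 to 38824955, was marked mainly at its promoter. The promoter peak had 162 fragments in the ERG library (38805455 to 38807006), against 58 in the Vector library (38805969 to 38806823). Its summit lay 266 bp past the inner of both starts in the ERG library and 244 bp past it in the Vector library, so the peak follows the inner start and not the end of the gene record. For this reason ETS2 counted as ERG library alone with the 500 bp window. The other 2 ERG-library peaks, with 22 and 28 fragments, lay 43.8 and 25.6 kb from the gene on opposite sides.

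ELK3 and ELK4 are ternary complex factors, which bind DNA with SRF and carry MAP kinase signals, ELK3 acting as a repressor until phosphorylated. They differed in their peaks. ELK4, on chromosome 1 from 205607943 to 205632011 on the minus strand, had a promoter peak of 131 fragments in the ERG library, against 57 in the Vector library, of nearly equal width (1505 and 1418 bp). Further ERG-library peaks in its window, with 23 and 38 fragments, lay inside SLC45A3, 28.9 and 46.9 kb away. With the gene record alone, the covered-length difference at ELK4 was 82 bp. ELK3, on chromosome 12 from 96194375 to 96269824, had no Vector-library peak in its window. Its start-site peak in the ERG library, at 96195086 to 96195659, had 15 fragments, at percentile 14.2 of the list. A Vector-library peak there would have needed 9 fragments, and the ERG-library number divided by 1.44 was 10.4. The other ERG-library peak near ELK3, with 38 fragments, lay 46.1 kb away inside CDK17. With the ERG list cut to its 9161 highest-scoring peaks, with the upper 50% of each list, with a gene-end window of 500 bp, or with summit fragments divided by 2.04, ELK3 had no end peak at all. Its end state was as first given in 3 of 7 alternatives.

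ETV3, a repressor linked to growth arrest in maturing macrophages, had a single peak in its window. It lies on chromosome 1 from 157121191 to 157138395 on the minus strand. The peak, at 157137974 to 157138870, had 27 fragments with its summit 198 bp past the start, and was in the ERG library alone. A Vector-library peak there would have needed 12 fragments, against 18.7 for the ERG-library number divided by 1.44. The peak ranked 10088 of 19671. ETV3 lost it with the upper 50% of each list and with the ERG list cut to its 9161 highest-scoring peaks. Its end state was as first given in 5 of 7 alternatives.

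ETV6 had the most ERG-library peaks of the group and the highest signal around them. Its peaks lay at or near the start and between 95.9 and 190.1 kb past it, and its 2.6 ERG-library peaks per 100 kb were fewer than the 4.06 at ELF4 and 3.49 at ELF1. It lies on chromosome 12 from 11649674 to 11895377 on the plus strand, and had 9 peaks in the ERG library, against 3 in the Vector library, all inside the gene or across its start. The covered length was 7334 bp in the ERG library, against 1953 bp in the Vector library. The difference of 5381 bp was at percentile 98.7 of all coding genes. The promoter peak had 172 fragments in the ERG library (11648855 to 11650261), against 58 in the Vector library (11648869 to 11650103), a ratio before scaling of 2.97 (2.19 to 4.07) at percentile 90.1 of shared pairs. The other shared peak, at 11838859 to 11840362 in the ERG library and 190.1 kb past the start, had 80 fragments in the ERG library, against 29 in the Vector library.

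The remaining 7 ERG-library peaks of ETV6 had no Vector-library counterpart although several were strong. The peaks at 11798240 to 11798791 and 11799281 to 11799981, about 149.0 and 149.8 kb past the start, had 102 and 131 fragments. The peak at 11812418 to 11813272 had 92. Vector-library peaks there would have needed 58, 57 and 38 fragments if the background stood in the same ratio of 1.44. The ERG-library numbers divided by 1.44 were 70.6, 90.7 and 63.7. At the shared pairs of ETV6 the background ratio was larger, 4.41 and 3.45, and a larger ratio lowers the number needed. The Vector-library peak without a counterpart, at 11809949 to 11810247 with 23 fragments, lay between the last pair of these. The deposited folds of these strong ERG-library peaks were low, from 2.03 to 3.14, since the fold divides by the local background.

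The local background of the peak caller, which the deposited fold and p-value fix together, was raised across ETV6 in the ERG library. It ran from 14.5 to 49.8 fragments over the 9 ERG-library peaks, with a median of 28.6, and from 6.03 to 8.97 over the 3 Vector-library peaks. At the 12 ERG-library peaks up to 1 Mb on either side of the gene it ran from 3.0 to 16.6, with a median of 5.02, and at the 8 Vector-library peaks there from 1.78 to 6.56. The highest ERG-library value inside ETV6 ranked 24 among the 9844 coding genes with a peak inside them, and the highest Vector-library value ranked 852 among 6277. A highest value tends to rise with the number of peaks, which differed between the libraries here, and the ranks were not adjusted for it. At the promoter pair the background was 39.5 fragments in the ERG library, against 8.97 in the Vector library. This ratio of 4.41 was at percentile 99.8 of all shared pairs, whose median was 1.97. At the pair 190.1 kb past the start it was 3.45, at percentile 98.5. Whether the caller took its background from the immunoprecipitated library or from an input library is not stated in the labels, and the source of the raised level was not tested.

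**Figure D3:**
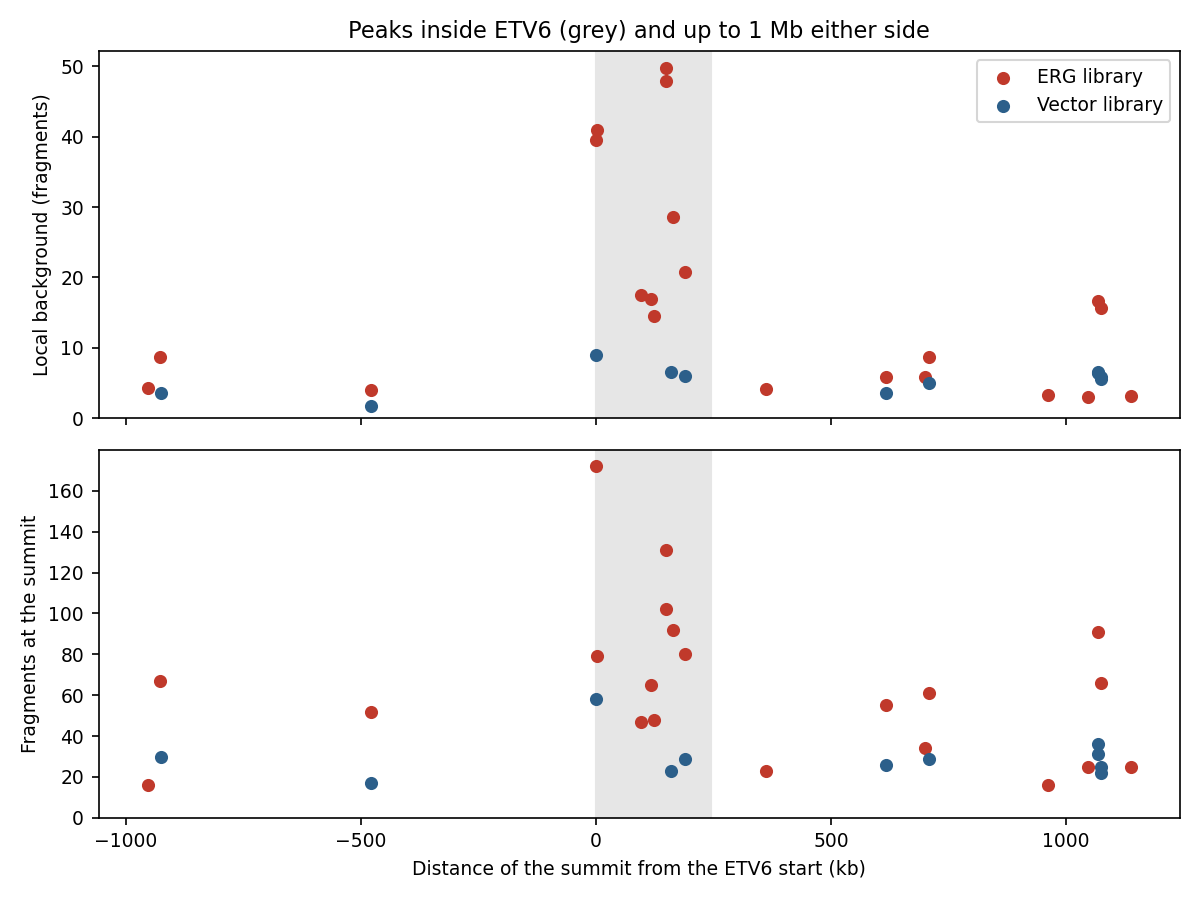
Local background (upper panel) and fragments at the summit (lower panel) of every peak inside ETV6 and up to 1 Mb either side, by distance in kb from the ETV6 start, with ERG-library peaks in red and Vector-library peaks in blue. All 9 red points inside the gene (grey) have a background of at least 14.5 fragments, and the 3 blue points there lie at or below 8.97.

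The other 9 genes ranked lower in background in the ERG library. Their highest values inside the gene in the ERG library ran from 3.17 fragments at ELK3 to 27.6 at ELF2. ELF2 ranked high in both libraries, at 317 among 9844 genes with ERG and at 222 among 6277 with Vector. Among their shared pairs the background ratio was highest at ETS1, 3.07 at percentile 96.6, and lowest at the ELF1 peak outside the gene, 1.56 at percentile 18.6.

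Over the 13 shared pairs near the 10 genes, the ERG-library peak was the wider one each time, by a median factor of 1.82, and by 1.52 over all 8055 pairs. Summit fragments summed to 1394 in the ERG library, against 619 in the Vector library. Divided by 1.44, the pooled ratio was 1.56 (1.42 to 1.72). The median of the single ratios on the same scale was 1.42, and 1.43 over all pairs with quartiles of 1.16 and 1.73. Shared sites near these genes thus had ratios close to those of shared sites in general. The interval lay above 1 for 8 pairs and included 1 for 5, and it lay below 1 for 0. Scaled instead by the ratio at strong shared peaks, the pooled ratio was 1.11.

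**Figure D4:**
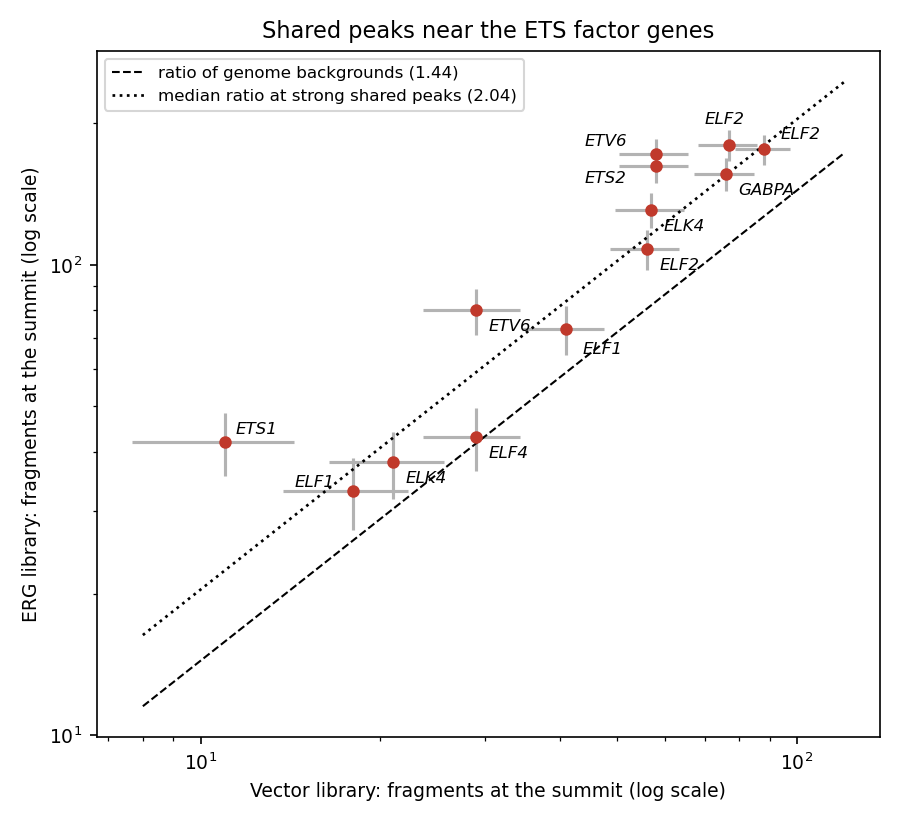
Fragments at the summit in the ERG library against those in the Vector library for the 13 shared peaks near the ETS factor genes, both on log scales, with bars of the square root of each count. The dashed line is the ratio of genome backgrounds, 1.44, and the dotted line the median ratio at strong shared peaks, 2.04. Farthest above the dotted line are ETS1 at 3.82, the ETV6 promoter at 2.97, ETS2 at 2.79 and the inner ETV6 peak at 2.76.

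Of the 18 other ETS family genes, among them ERG, FLI1 and FEV, 4 had end peaks in both libraries and 11 in neither, against 30.2% of coding genes with both. The ERG library alone had one at 3, a share near the 15.6% of coding genes. These were ETV2, an endothelial and blood progenitor factor, ETV4, and SPIB, a lymphoid factor. Covered length within 50 kb was 5031 bp in the ERG library, against 2035 bp in the Vector library at ETV2, 1179 and 371 bp at ETV4, and 2972 and 723 bp at SPIB. The median difference over these 18 genes was 626 bp. ETV6, with 5381 bp, had a smaller excess than ERG itself, with 6529 bp, and a larger one than FLI1, with 4519 bp. Their windows differ in length, 345.7 kb at ETV6, 394.5 kb at ERG and 228.1 kb at FLI1. The excess was not divided by length, so this order is not one of density.

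Of 15 partners and regulators of these factors, 10 had end peaks in both libraries, against 30.2% of coding genes. The ERG library alone had one at 3, a share near the 15.6% of coding genes. These were GABPB2, which encodes a partner of GABPA, CREBBP, which encodes an acetyltransferase that ETS1 recruits, and RUNX1, which encodes a DNA-binding partner of ETS1 and ELF2. Covered length was 6503 bp in the ERG library, against 1178 bp in the Vector library at GABPB2, 2615 and 1277 bp at CREBBP, and 8880 and 1909 bp at RUNX1. The median difference over the 15 genes was 2152 bp. SRF, the partner of ELK3 and ELK4, had end peaks in both, with 2317 bp in the ERG library, against 1828 bp in the Vector library.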

How the data were processed

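Each of the 2 files is a peak list for a single library. Per the submitters' processing notes, the authors used Bowtie2, MACS2, deepTools and hg38; versions, settings and any input library are not stated there. The deposited fold (a ratio over local background), −log10 p-value, −log10 q-value and score of each peak are the authors' values. Fragments at each summit and the local background were recovered from the deposited fold and −log10 p-value with MACS2's formulas, and came out whole for 19650 ERG-library peaks (99.9%) and 9150 Vector-library peaks (99.9%), at a relative tolerance of 0.0001. The calculation was checked on simulated data. Read totals are not part of the lists, and the lowest recovered local background of each list was taken as its genome background.

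Gene records and promoter windows came from RefSeq tables of GRCh38.p14, and 10 of 10 genes matched. ETS1 was not matched in the promoter table. Exon positions were not used, so peaks are placed only inside or outside a gene record. Peaks overlapping by 1 bp were shared. Each shared ERG-library peak was paired with the Vector-library peak of nearest summit. Intervals are exact (Clopper-Pearson for shares, conditional for ratios). Percentiles and ranks describe these lists. Genes were named by the family list, and list members where 1 library alone had a gene-end peak; ERG, FLI1 and SRF were named besides, after their values were seen. The members, lists and settings were chosen with earlier results of these data known. Scripts used Python 3.11.15, pandas 2.3.3, numpy 2.4.6 and scipy 1.17.1.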

Additional observations from a re-analysis of the deposited data

How the results depend on the processing

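Peak counts and covered length moved when the lists were shortened, and covered length also with the flank. Keeping the upper 50% of each list, the 10 genes had 22 ERG-library and 10 Vector-library peaks and a median covered-length difference of 1144 bp, and 1 gene kept an end peak found with ERG only. Cutting the ERG list to its 9161 highest-scoring peaks gave 22 ERG-library peaks, 899 bp and 1 gene, and 50% of ERG-library peaks were unshared. With ERG-library summit fragments divided by the ratio at strong shared peaks, an alternative chosen after seeing the data, there were 25 ERG-library peaks, 56.0% of them unshared, and 1247.5 bp. The difference at ELK4 was -309 bp under each of the last 2 settings, which dropped the ERG-library peak inside SLC45A3. The median difference was 932 bp with a flank of 10 kb and 733.5 bp with none. The pooled ratio of summit fragments was 1.11 when scaled by the strong shared peaks. The cause was not tested. Of 41 alternatives to the main values, 28 lay within 1.5 times of it or inside its interval. Among them were those at the Vector genome background, where 41 ERG-library peaks were left, all of them already selected for passing in the ERG list. Settings that rescaled fragments removed whole peaks and kept the edges of the others. Under them covered length could change only through lost peaks, so its small change at the Vector genome background says little about depth. Of 60 alternatives for the difference at single genes, 15 left it equal, 43 changed its size and 2 its sign. No paired analysis was possible because each group held 1 library, and for the same reason no library could be left out. The Vector library limits what can be called absent, since a site below its threshold gives no value.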
